A study of Mus musculus with 6 samples.

Results

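Coagulation and plasminogen activation genes were examined in cultured enteric glial cells (EGCs), glia of the enteric nervous system, at rest and after stimulation with lipopolysaccharide (LPS). The 10 genes Plau, Plat, Plaur, Serpine2, Serpinb2, F3, Tfpi, Tfpi2, Thbd and Procr were a list chosen with earlier results of these data known, taken by gene symbol from 46603 gene rows, and all 10 had enough counts to be tested. Poly(A) RNA was sequenced from 3 control cultures without stimulus and from 3 cultures treated with 100 ng/ml LPS for 12 h. All 6 cultures were derived from neurospheres that had been raised from the whole gut of C57BL/6J embryos (embryonic day 14.5), then plated and grown to confluence in medium with 10% serum. No sorting step is described in the sources used here, and neither is the number of embryos behind a culture, so p-values measure the spread between these cultures, which may be technical.

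Coagulation starts when tissue factor, encoded by F3, binds factor VII on a cell surface, which activates factor X and then thrombin, the protease that makes fibrin. Plasminogen activation is the opposite arm. The proteases tPA (Plat) and uPA (Plau) turn plasminogen into plasmin, which dissolves fibrin and also cleaves matrix proteins, so that this system is known in the nervous system for cell migration and remodelling as well as for clot removal. Each arm has inhibitors and cell-surface receptors among the genes below.

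In these EGC cultures, LPS was followed by a large rise of the inhibitor transcripts Serpinb2 and Tfpi2 and of the protein C receptor Procr. Plat and Serpine2 rose less, and Plau and F3 fell. The RNA also held markers of other cell types, given below, so these are changes of the cultures as a whole. In CPM, that is counts scaled to library size and composition, Serpinb2 went from 0.389 ± 0.487 CPM to 59.6 ± 15.6 CPM, Tfpi2 from 6.48 ± 0.697 CPM to 59.6 ± 16.2 CPM and Procr from 10.7 ± 1.11 CPM to 81.6 ± 36.5 CPM (SD, n = 3 each). Plau went from 143 ± 65.4 CPM to 42.9 ± 10.1 CPM and F3 from 113 ± 2.20 CPM to 60.8 ± 7.38 CPM (SD, n = 3 each). Plaur, Tfpi and Thbd were not called. A gene was called at a Benjamini-Hochberg adjusted p under 0.05 in the edgeR quasi-likelihood test over 15226 genes.

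Of the 10 genes, 5 were called higher, against 9.09% of all genes tested, and 2 were called lower, against 6.71%. Their median log2 fold change was 0.49 and the median of its absolute value 0.92, beside -0.02 and 0.28 over all genes tested. Since the list was chosen with earlier results of these data known, these shares describe it and do not test it. Serpinb2, among the 5, passed the count filter through the LPS libraries alone. Under a filter of 10 counts in every library, which removed Serpinb2, 4 members were called higher, where 1204 of all 13817 genes were. The CPM of the LPS and control groups did not overlap for 8 genes, 5 higher and 3 lower, where 19.3% and 19.4% of all genes tested were without overlap in these directions. Libraries that shared a replicate number deviated together, and with that number as a block 6 genes were called higher and 2 lower, against 15.4% and 14.9% of all genes. The added call was Plaur. Without control replicate 2, 3 were called higher (Plat, Serpinb2 and Tfpi2) and 1 lower (F3), in a fit that called 2.44% of all genes higher and 0.72% lower.

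**Figure D1:**
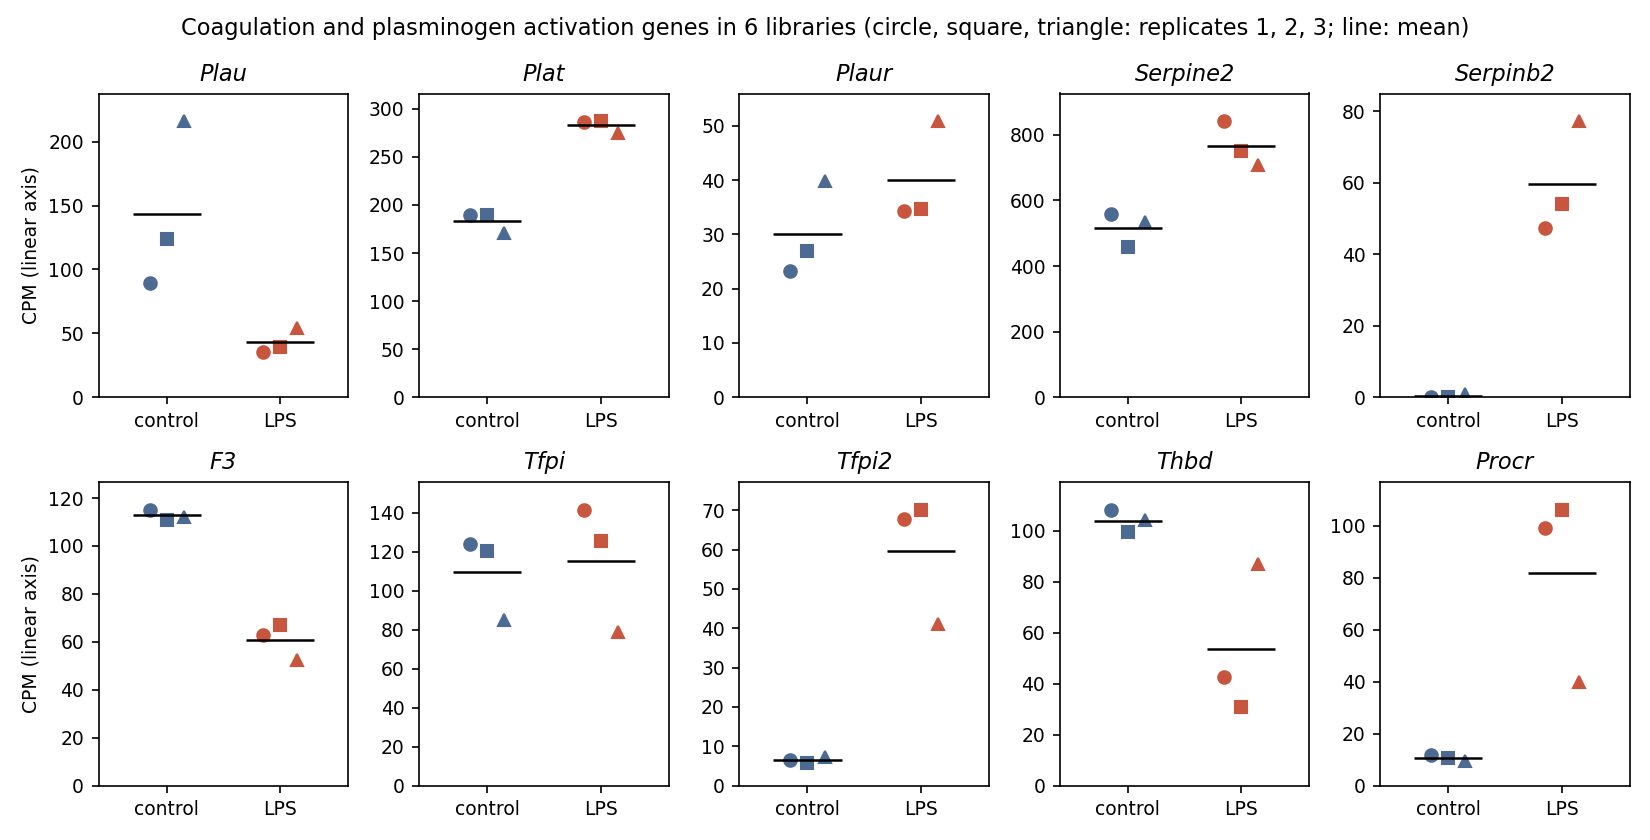
CPM (linear axis from 0, a scale of its own in each panel) of the 10 genes in the 3 control and 3 LPS libraries, with circles, squares and triangles for replicates 1, 2 and 3 and a line at the group mean. Serpinb2, Tfpi2 and Procr lie near the bottom of the axis in control and rise in each LPS library, while Thbd and Procr in LPS replicate 3 (87.0 and 39.7 CPM) lie closer to the controls than in the other LPS libraries.

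Some properties of the libraries bear on these values. Total counts ranged from 18775316 to 23664312, and 1 count was worth between 0.0413 and 0.0557 CPM. All 6 glial markers examined passed the count filter, with a summed level of 260.9 to 374.4 CPM in control and 300.1 to 316.5 CPM in LPS, but S100b was called lower, from 22.2 ± 2.20 CPM to 5.92 ± 3.08 CPM (SD, n = 3 per group, edgeR adjusted p = 0.0238). All 12 macrophage markers passed as well, and every one was highest in replicate 3 of its group. Their sum was 3987, 5146 and 12144 CPM in control replicates 1, 2 and 3 and 3982, 5165 and 19658 CPM in the LPS replicates, so the sums overlapped. Single macrophage markers did differ: Adgre1 was called higher (6.87-fold, edgeR adjusted p = 0.0452), and the replicate-block fit put 4 of the 12 higher and 4 lower, Mrc1 among the latter (-3.92 on the log2 scale, edgeR adjusted p = 0.0124). Mesothelium is a cell type known for thrombomodulin and tPA. Its markers summed to between 82.4 and 121.7 CPM in control and between 37.3 and 63.1 CPM in LPS. Of these markers 2 of 5 were called lower, and all 5 with the replicate block, a fit that called 14.9% of all genes lower. Endothelial markers summed to between 18.7 and 24.4 CPM in control and between 14.6 and 22.2 CPM in LPS, and Cldn5 and Tie1 had at most 8 counts in a library. Of the 5 platelet markers, Gp1ba had 0 counts in all libraries and Gp9 at most 2, whereas Pf4 and Itga2b passed the filter, Pf4 at 1.31, 2.48 and 22.3 CPM in control and 4.35, 6.74 and 25.8 CPM after LPS, and neither was called. Smooth muscle markers summed to between 2266 and 2492 CPM in control and between 634.1 and 900.3 CPM in LPS, and all 6 were called lower, while mesenchymal markers summed to between 14781 and 15716 CPM over all libraries, with Pdgfra (log2 fold change 0.50, edgeR adjusted p = 0.0114) and Dcn (0.90, 0.0118) called higher and, with the replicate block, Lum lower. In every library the sum of the glial list was below those of the mesenchymal, macrophage and smooth muscle lists. Sums over different genes do not give shares of cells. Fewer cells of a type and less RNA per cell cannot be told apart in bulk RNA.

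The plasminogen activators moved in opposite directions. Plau (ENSMUSG00000021822, chromosome 14, 20836660 to 20843385, plus strand, GRCm38), which encodes uPA, was at 89.7, 124 and 216 CPM in control replicates 1, 2 and 3 and at 35.0, 39.3 and 54.2 CPM in the LPS replicates. All 3 LPS libraries were below all 3 controls, and in both groups replicate 3 was highest. Plau fell by 1.74 on the log2 scale (SE 0.36, edgeR adjusted p = 0.0291), that is 3.34-fold. Omitting control replicate 2, or either of LPS replicates 1 and 2, removed the call (edgeR adjusted p up to 0.116). Without control replicate 3 the log2 fold change was -1.30 and was called.

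Plat (ENSMUSG00000031538, chromosome 8, 22757727 to 22782844, plus strand), which encodes tPA, varied little within groups. It was at 190.0, 189 and 171 CPM in control and at 286, 287 and 275 CPM in LPS, without overlap. It rose 1.54-fold (log2 fold change 0.63, SE 0.08, edgeR adjusted p = 0.00641) and was called in each of its 16 alternatives. Plaur (ENSMUSG00000046223, chromosome 7, 24462484 to 24475968, plus strand), the uPA receptor that holds the protease at the cell surface, was at 23.2, 27.0 and 39.9 CPM in control and at 34.4, 34.7 and 50.9 CPM in LPS. The groups overlapped, since control replicate 3 was above LPS replicates 1 and 2, yet each LPS library was above the control library of its number. The log2 fold change was 0.41 with a 95% interval from -0.22 to 1.04 (edgeR adjusted p = 0.328). With the replicate block it was 0.43 and called (edgeR adjusted p = 0.0201).

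Both serpins, protease inhibitors that trap their target in a covalent complex, were higher in LPS. Serpine2 (ENSMUSG00000026249, chromosome 1, 79794197 to 79861180, minus strand) encodes protease nexin-1, a glia-derived inhibitor of thrombin, uPA, tPA and plasmin. It was the most abundant of the 10 by CPM, at 558, 458 and 535 CPM in control and 842, 749.8 and 707 CPM in LPS, without overlap. It rose 1.48-fold (log2 fold change 0.57, SE 0.12, edgeR adjusted p = 0.0287). The call depended on scaling and on single libraries: it was lost with upper-quartile factors (0.0611), with library size alone (0.0732) and on omission of any library numbered 1 or 2 (edgeR adjusted p up to 0.116).

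Serpinb2 (ENSMUSG00000062345, chromosome 1, 107511423 to 107535478, plus strand) encodes PAI-2, an inhibitor of uPA and tPA that is kept largely inside cells and is best known from stimulated macrophages. Its raw counts were 3, 2 and 23 in the controls numbered 1, 2 and 3 but 959, 971 and 1475 after LPS. In CPM this was 0.127, 0.0885 and 0.951 in control and 47.4, 54.1 and 77.2 CPM in LPS. Control replicates 1 and 2 were at or under the floor of 3 counts, and replicate 3 was highest in both groups, as were the macrophage markers, whose part in the result was not tested. Pooled over libraries, 28 counts in control stood against 3405 in LPS, a 149-fold ratio with a 95% exact interval of 103 to 225 that covers counting error only. Serpinb2 passed the count filter through the LPS libraries alone, so that it had to be high there to be tested. The log2 fold change was 7.22 (SE 0.74, edgeR adjusted p = 0.00356), and it was 9.04 without control replicate 3, from 6.77 to 7.36 without any other single library, and 7.84 in limma-voom. Exons of Serpinb2 share 291 bases with those of Serpinb10 on the same strand, but the 2 identifiers of Serpinb10 held 1 count in all 6 libraries.

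Among the genes of coagulation start, tissue factor fell and its main inhibitor was not called. F3 (ENSMUSG00000028128, chromosome 3, 121723537 to 121735048, plus strand) was at 115, 111 and 112 CPM in control and at 62.9, 66.9 and 52.6 CPM in LPS. The controls were close to each other and all LPS libraries were below them. F3 fell 1.85-fold (log2 fold change -0.89, SE 0.10, edgeR adjusted p = 0.00534), and the call held in each of its 16 alternatives. Tfpi (ENSMUSG00000027082, chromosome 2, 84432855 to 84476775, minus strand), tissue factor pathway inhibitor, which blocks factor Xa and the complex of tissue factor with factor VIIa, was at 124, 120.2 and 84.8 CPM in control and at 142, 126 and 78.6 CPM in LPS. The groups overlapped, and replicate 3 was lowest in both. Its log2 fold change was 0.07 with a 95% interval from -0.56 to 0.70 (edgeR adjusted p = 0.880), which leaves room for a change of up to 1.62-fold upward, and its sign turned with upper-quartile factors or library size alone.

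Tfpi2 (ENSMUSG00000029664, chromosome 6, 3962595 to 3988919, minus strand) is the paralog of Tfpi and encodes a matrix-bound Kunitz inhibitor of plasmin and trypsin. Unlike Tfpi it was low at rest, at 6.44, 5.80 and 7.19 CPM in control, and reached 67.7, 70.2 and 41.0 CPM in LPS. Even the lowest LPS library was far above the highest control. The rise was 9.19-fold (log2 fold change 3.20, SE 0.24, edgeR adjusted p = 0.00141) and was called in each of its 16 alternatives.

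The receptors of the protein C pathway, which turns thrombin from a clotting into an anticoagulant enzyme, had changes of opposite sign, of which the rise of Procr was called. Thbd (ENSMUSG00000074743, chromosome 2, 148404466 to 148408188, minus strand) encodes thrombomodulin, the thrombin receptor of this pathway. It was at 108, 99.4 and 104 CPM in control and at 42.6, 30.9 and 87.0 CPM in LPS. All LPS libraries were below all controls, but LPS replicate 3 came close to them. The log2 fold change of -0.96 had a 95% interval from -1.88 to -0.04 and was not called (edgeR unadjusted p = 0.0437, adjusted p = 0.143). Without LPS replicate 3 Thbd was called at -1.50 (edgeR adjusted p = 0.00354), in a fit that called 9.13% of all genes lower. The mesothelial markers were lower in LPS as well, at a sum of 37.3, 38.2 and 63.1 CPM in its replicates 1, 2 and 3, and their part in the Thbd values was not tested. Procr (ENSMUSG00000027611, chromosome 2, 155751117 to 155755471, plus strand) encodes the endothelial protein C receptor, which presents protein C to the complex of thrombin and thrombomodulin. It was at 11.9, 10.5 and 9.67 CPM in control and at 99.0, 106 and 39.7 CPM in LPS. Here too LPS replicate 3 lay nearest to the controls, from the other side, and the groups did not overlap. None of the 4 endothelial markers tested was called without the replicate block, and with it Pecam1 (edgeR adjusted p = 0.0246) and Cdh5 (0.0306) were called higher, while Kdr and Emcn, the more abundant ones, had log2 fold changes of -0.47 and -0.90 and were not called in either fit. Cdh5 passed the count filter through the LPS libraries alone. Pecam1 averaged 1.50 ± 1.36 CPM at rest and 2.96 ± 2.75 CPM after LPS, and Cdh5 0.407 ± 0.228 CPM and 1.44 ± 1.26 CPM (SD, n = 3 per group). The sum of the list was lower in LPS than in control in replicates 1 and 2 and higher in replicate 3 (18.7 CPM in control, 22.2 CPM in LPS), and its part in the Procr values was not tested. Procr rose 7.64-fold (log2 fold change 2.93, SE 0.39, edgeR adjusted p = 0.00863), which no longer passed on omission of control replicate 2 (0.0601).

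**Figure D2:**
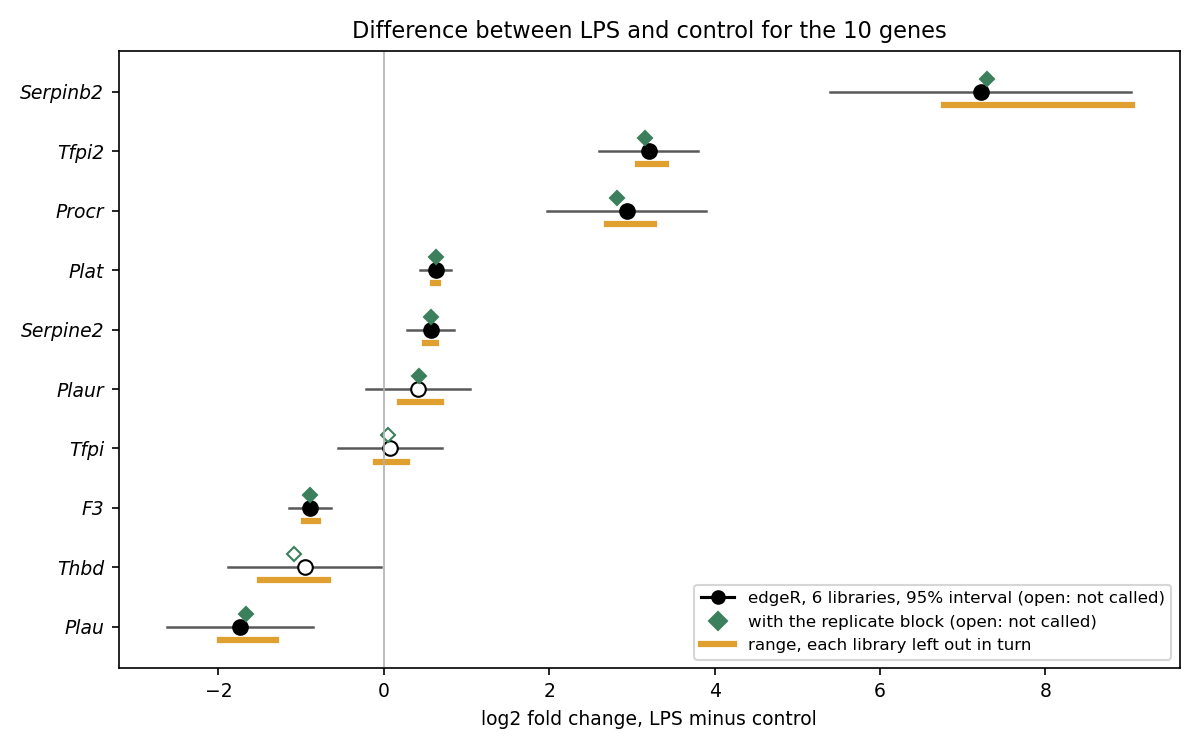
Log2 fold change, LPS minus control, of the 10 genes from edgeR with its 95% interval (black), with the replicate block (green diamonds) and as a range over the fits that each left out 1 library (orange); open symbols were not called. Serpinb2, Tfpi2 and Procr stand at 7.22, 3.20 and 2.93, and Plau lies lowest at -1.74.

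Replicate 3 differed from replicates 1 and 2 in several of these genes. Chi-square per gene, which is near 1 for repeat counts of a single library, was 7.13 between control replicates 1 and 2 and 7.54 between LPS replicates 1 and 2, but from 67.3 to 145.6 between replicate 3 and the others of its group. Plau, Plaur and Serpinb2 were highest in replicate 3 of both groups, while Plat, Tfpi and Procr were lowest there. When both libraries numbered 3 were left out, a setting chosen after the data were seen, 6 genes were called higher and 3 lower, in a fit that called 22.6% and 20.4% of all genes in these directions. The added calls were Plaur (log2 fold change 0.48, edgeR adjusted p = 0.00595) and Thbd (-1.47, 0.000358). Plau was at -1.50 and Procr at 3.22 in that fit. The macrophage markers were highest in these same libraries. The neuron markers were lowest there, with sums of 376.4, 376.4 and 218.1 CPM in control replicates 1, 2 and 3 and 361.3, 378.7 and 239.8 CPM after LPS. The part of either list in the differences was not tested.

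Ratios of raw counts within a library do not depend on scaling between libraries, and were used to compare groups. Plau to Plat was 0.472, 0.654 and 1.27 in the controls numbered 1, 2 and 3, against 0.122, 0.137 and 0.197 after LPS. These are ratios of counts of transcripts of unequal length and do not rank their levels. The ratio was 4.91-fold lower in LPS by the difference of mean logs. Plau to its inhibitor Serpine2 was 0.161, 0.270 and 0.404 in control and 0.0416, 0.0525 and 0.0767 in LPS, 4.72-fold lower. F3 to Tfpi was 0.929, 0.922 and 1.32 in control and 0.444, 0.533 and 0.670 in LPS, 1.93-fold lower. In both of these pairs the protease or initiator lost ground to its inhibitor in every LPS library. This does not extend to tPA, which Serpine2 also inhibits. Plat rose 1.54-fold beside 1.48-fold for Serpine2, and the ratio of these 2 genes was not among the 5. Tfpi2 to Tfpi was 0.0519, 0.0482 and 0.0848 in control and 0.478, 0.559 and 0.522 in LPS, 8.69-fold higher. Thbd to Procr went from 9.13, 9.47 and 10.8 in control to 0.431, 0.291 and 2.19 in LPS, 15.04-fold lower, with a log2 difference of -3.91 that was -4.79 without LPS replicate 3 and -3.33 without LPS replicate 2. LPS replicate 3 lay between the other LPS libraries and the controls. None of the 5 ratios overlapped between groups. Each had an exact two-sided permutation p of 0.1, the smallest that 3 against 3 libraries allow (0.1 after Benjamini-Hochberg adjustment over the 5). Each pair holds a gene that was itself called, so the ratios restate the gene calls and add no separate support. How often other pairs of genes are without overlap was not examined.

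**Figure D3:**
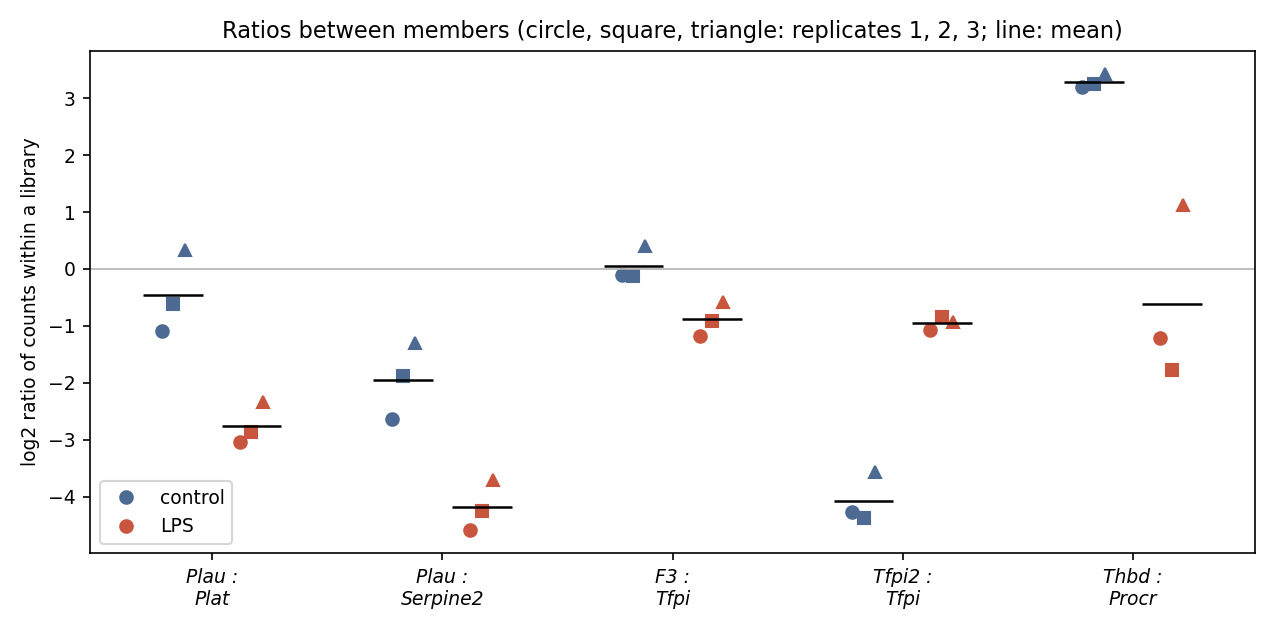
Log2 ratio of the raw counts of a pair of genes within each library, for 5 pairs, with control in blue, LPS in red, circles, squares and triangles for replicates 1, 2 and 3 and a line at the mean. Thbd to Procr moves most, from a mean of 3.29 to -0.62, and its LPS libraries are the most spread.

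Levels of different genes were compared as CPM per kilobase of exon. At rest Serpine2 and Plau led, at 62.4 ± 6.29 and 60.5 ± 27.6 CPM per kilobase, with ranges that overlapped. F3 followed at 44.6 ± 0.87, Plat at 29.4 ± 1.74 and Thbd at 27.9 ± 1.201 CPM per kilobase (SD, n = 3 each). F3 overlapped in range with Plau, and Plat with Thbd, whereas each later step of the order, to Tfpi, Plaur, Procr, Tfpi2 and Serpinb2, was free of overlap. Procr and Tfpi2 stood at 5.26 ± 0.55 and 3.71 ± 0.40 and Serpinb2 at 0.165 ± 0.207 CPM per kilobase (SD, n = 3 each). In LPS only the first step was free of overlap. Serpine2 led at 92.5 ± 8.32, ahead of Plat at 45.3 ± 1.07, Procr at 40.2 ± 18.0, Tfpi2 at 34.1 ± 9.26 and Serpinb2 at 25.4 ± 6.66 CPM per kilobase (SD, n = 3 each). Neighbours from Plat downward, through F3, Tfpi, Plau and Plaur to Thbd at 14.4 ± 7.96, overlapped in range. Plau thus went from rank 2 to rank 8 by mean level and Procr from rank 8 to rank 3.

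**Figure D4:**
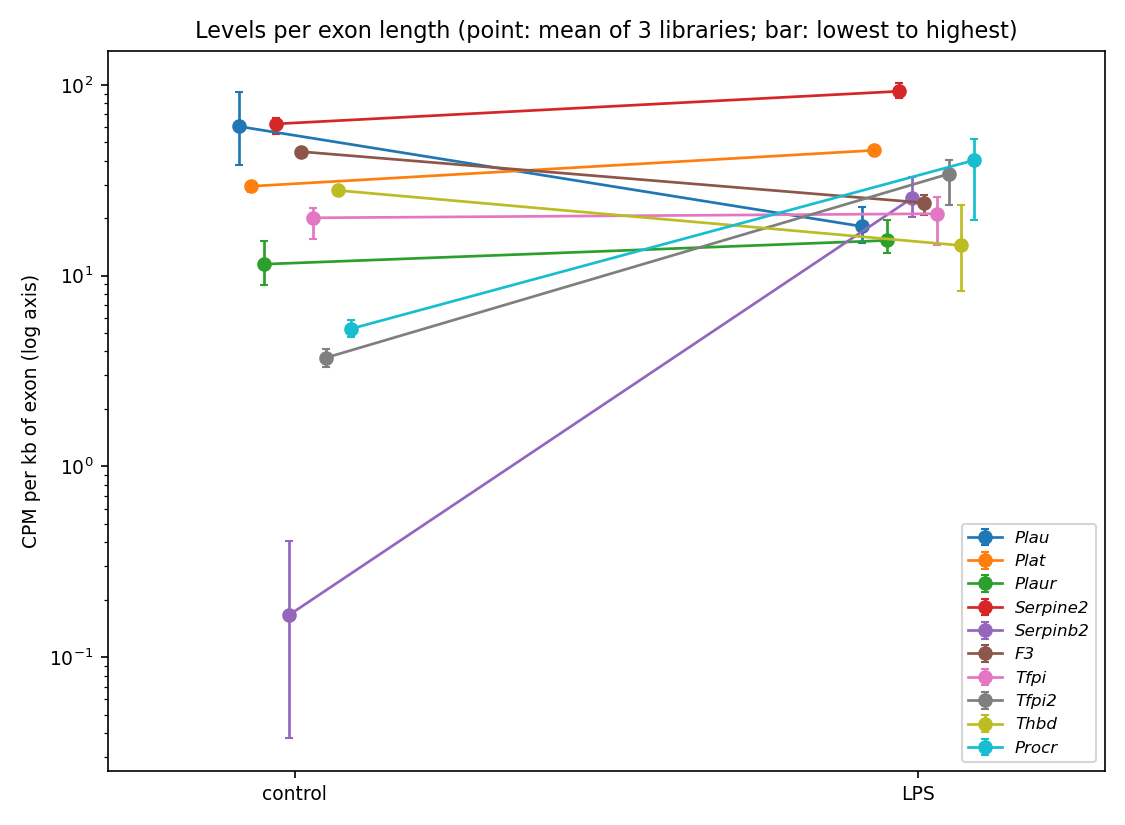
Mean CPM per kilobase of exon (log axis) of the 10 genes in control and LPS, with bars from the lowest to the highest of 3 libraries. The levels span from 0.165 to 62.4 at rest and from 14.4 to 92.5 after LPS.

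Promoter sequence was examined because Serpinb2, Tfpi2 and Procr moved together and F3 against them. RefSeq promoters of GRCm38.p6 (250 bases before to 50 after a start site) were matched by symbol for 7 of the 10 genes, with no entry for Plau, Plat and Thbd, and where the table held several starts the one nearest to the principal GENCODE transcript was used. Motifs were chosen with these sequences in view and searched on both strands. The AP-1 letters TGANTCA stood in 5 of the 7 promoters, those of Plaur, Serpinb2, F3, Tfpi2 and Procr, and in 7.81% of all 32851 promoters of this length, a table with several starts for some genes. They were found neither in Serpine2 nor in Tfpi. The 5 genes include 3 called higher, 1 called lower and 1 not called, so the letters went with no single direction. The windows show 20 bases on either side of the match, 5′ to 3′ on the strand of the gene, with the AP-1 letters in capitals.
Plaur, chr7:24462394-24462440, plus strand: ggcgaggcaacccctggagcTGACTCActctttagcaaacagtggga
Serpinb2, chr1:107511309-107511355, plus strand: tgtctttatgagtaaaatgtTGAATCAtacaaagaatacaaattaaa
F3, chr3:121723371-121723428, plus strand: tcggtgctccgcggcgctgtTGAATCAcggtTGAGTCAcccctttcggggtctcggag
Tfpi2, chr6:3968426-3968472, minus strand: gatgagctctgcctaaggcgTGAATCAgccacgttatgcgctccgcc
Procr, chr2:155751043-155751089, plus strand: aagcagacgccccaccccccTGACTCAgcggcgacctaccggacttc

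Counted from the start site, the matches began at -69 in Plaur, -94 in Serpinb2, -146 and -135 in F3, -77 in Tfpi2 and -154 in Procr, whose start site in this table lies 100 bases from that of the principal GENCODE transcript. F3 was the 1 gene with a pair of matches, 4 bases apart. The letters TATAAA (13.6% of all promoters) were found in Serpinb2 from -29 to -24, without overlap with its AP-1 letters, and on the opposite strand in F3 from 44 to 49. The strict NF-κB consensus (looser forms were not searched, 8.46% of all promoters), the cyclic AMP response element TGACGTCA (1.79%) and the interferon response core, TTTC and TTTC with 2 free bases between (3.44%), were found in 0 of the 7, which says only that these letters are not in these windows. The whole promoter of Serpinb2, the gene with the largest change, is shown with the AP-1 and TATAAA letters in capitals.
Serpinb2, chr1:107511173-107511472, plus strand: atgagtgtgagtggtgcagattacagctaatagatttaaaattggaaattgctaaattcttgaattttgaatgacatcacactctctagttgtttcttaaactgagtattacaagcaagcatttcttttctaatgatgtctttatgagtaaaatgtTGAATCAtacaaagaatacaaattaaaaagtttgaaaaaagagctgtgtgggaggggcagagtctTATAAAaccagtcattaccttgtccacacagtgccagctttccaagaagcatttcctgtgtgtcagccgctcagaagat

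Other genes of coagulation and fibrinolysis were looked at for context. Of 46 further genes in 6 lists, 35 passed the count filter, and 5 of these were called higher and 2 lower, where 9.09% and 6.71% of all genes tested were called. Their median log2 fold change was 0.17. Of the 5 called higher, F10 and F2rl3 passed the count filter through the LPS libraries alone, so that they had to be high there to be tested. Under a filter of 10 counts in every library 3 of the wider genes were called higher, where 1204 of all 13817 genes were. On omission of control replicate 2, or of LPS replicate 1 or 2, 2 were called higher and at most 1 lower. The last 2 of these fits called 3.98% and 3.36% of all genes higher and 1.44% and 1.04% lower. On omission of control replicate 1 the count was 3 higher and 3 lower, against 3.03% and 1.25% of all genes. With the replicate block 7 of the 35 were higher and 6 lower, where 15.4% and 14.9% of all genes were called. The 11 genes that did not pass, among them F7, F9, F11, Proc and Klkb1, had at most 23 counts in a library.

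Of the 16 clotting factor and fibrinogen genes 10 passed the filter, most of them at low levels. F10, the zymogen that tissue factor activates, was at 0.212, 0.177 and 0.207 CPM in control, with 14 counts in all, and at 2.08, 3.40 and 3.09 CPM in LPS, with 162 counts. It rose by 3.80 on the log2 scale (edgeR adjusted p = 0.00176), from a low level, and was called in each of its 15 alternatives. It passed the count filter through the LPS libraries alone and had no value under the filter of 10 counts in every library. Vwf, the adhesive carrier of factor VIII and a product of endothelium and platelets, was at 16.5, 26.1 and 56.7 CPM in control and at 7.46, 9.70 and 8.85 CPM in LPS (log2 fold change -1.93, edgeR adjusted p = 0.0430). Omission of control replicate 2 or of any LPS library took the call away (up to 0.135), as did limma-voom (0.103), and without control replicate 3 the log2 fold change was -1.28. F13a1, the fibrin cross-linking subunit of factor XIII, which macrophages are known to make, was at 1.44, 2.04 and 4.46 CPM in control and at 0.0494, 0.0557 and 0.890 CPM in LPS. Its log2 fold change of -2.97 was not called (edgeR adjusted p = 0.105) but was with the replicate block (-3.24, 0.0186), and it passed the count filter through the control libraries alone. The fibrinogen chains Fga, Fgb and Fgg passed the filter and were not called, and Fgg, the highest of its list per kilobase, was at 8.90, 6.15 and 2.77 CPM in the controls and at 11.3, 5.46 and 3.66 CPM after LPS, lowest in replicate 3 of both groups.

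Of the 7 anticoagulants 3 had enough counts, and the edgeR test called none of these, the lowest unadjusted p being 0.0687. Pros1, the protein C cofactor protein S and the highest of them, was at 200.3, 201 and 208 CPM in control and at 175, 167 and 195 CPM in LPS (log2 fold change -0.18, edgeR adjusted p = 0.191). Among the fibrinolysis genes, Serping1, the C1 inhibitor that also blocks factor XIIa and kallikrein, was at 122, 116 and 111 CPM in control and at 611, 593 and 478 CPM in LPS, a 4.81-fold rise (edgeR adjusted p = 0.000383) that was called in each of its 16 alternatives. A2m, a broad protease trap, was at 18.9, 11.3 and 9.26 CPM in control and 67.1, 76.3 and 17.8 CPM in LPS and was called with the replicate block (log2 fold change 1.87, edgeR adjusted p = 0.0242, against 0.0695 without it). Thbs1, the highest of this list, had a log2 fold change of 0.36 (edgeR adjusted p = 0.144). Plg, plasminogen itself, had at most 2.77 CPM in any library.

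**Figure D5:**
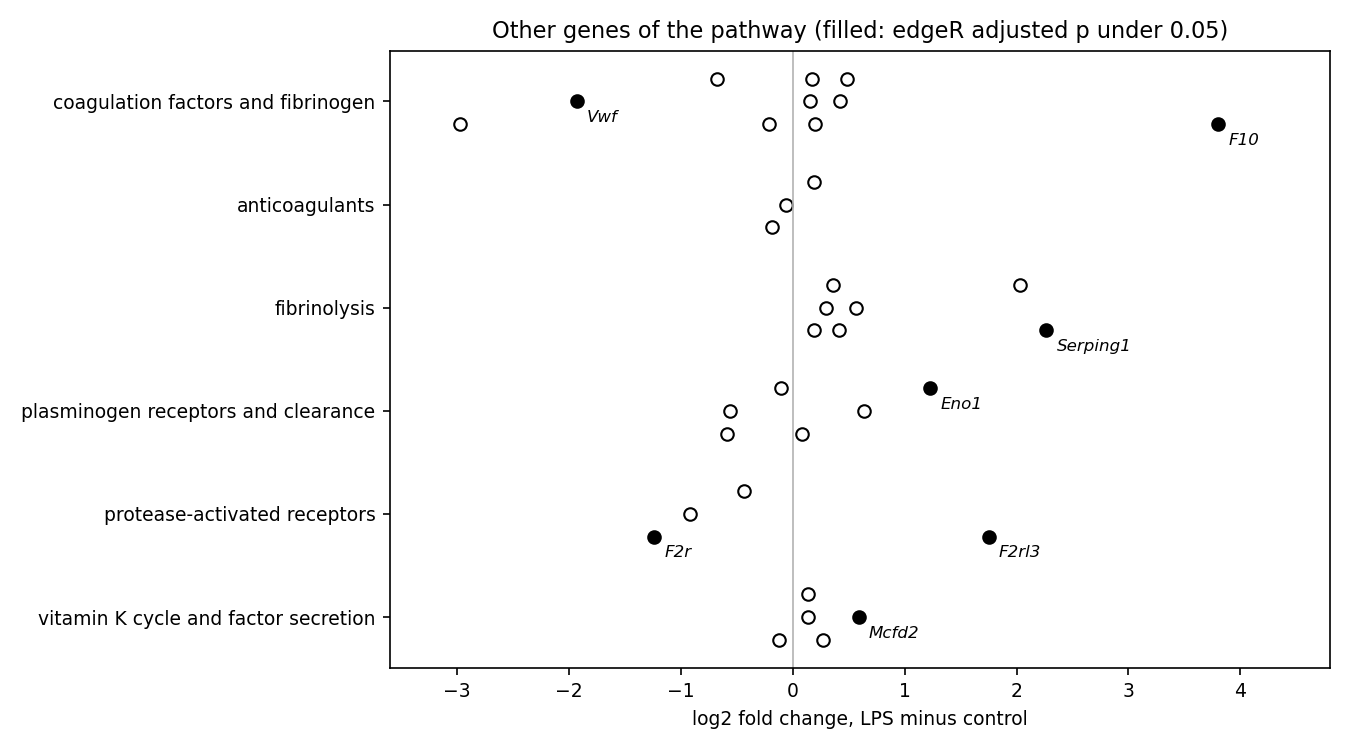
Log2 fold change, LPS minus control, of the 35 other pathway genes that passed the filter, by list, with filled symbols and names for the 7 called genes. Most genes lie within 1 of 0, with F10 at 3.80 and Serping1 at 2.27 farthest to the right.

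Among receptors for thrombin, F2r, or PAR1, the highest receptor of its list, was at 631, 668 and 781 CPM in control and at 256, 261 and 365 CPM in LPS, 2.36-fold lower (edgeR adjusted p = 0.0102), which fell short on omission of control replicate 2 (0.0556) or LPS replicate 2 (0.0538). F2rl3, the thrombin receptor PAR4, was higher in LPS but low throughout, with 0.298 ± 0.110 CPM at rest and 1.02 ± 0.115 CPM after LPS (SD, n = 3 per group, edgeR adjusted p = 0.0232). Omission of control replicate 2 or 3, or of LPS replicate 1 or 2, took the call away (up to 0.113), and it passed the count filter through the LPS libraries alone. F2rl1 and F2rl2 were not called. With the replicate block F2rl1, or PAR2, was called lower (-0.86, edgeR adjusted p = 0.0255).

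Among plasminogen receptors, Eno1, the glycolytic enolase that also binds plasminogen at the cell surface, averaged 487 ± 21.1 CPM at rest and 1138 ± 281 CPM after LPS (SD, n = 3 per group), a rise of 2.34-fold (edgeR adjusted p = 0.0149). It was no longer called on omission of any library numbered 1 or 2 (up to 0.0799), and whether reads from processed copies of this gene enter its count was not examined. Anxa2, which with S100a10 binds tPA and plasminogen and was the highest of this list per kilobase at rest, though not after LPS, averaged 732 ± 32.6 CPM at rest against 681 ± 119.7 CPM after LPS (SD, n = 3 per group) and was not called. With the replicate block S100a10 (-0.58, edgeR adjusted p = 0.00642) and the clearance receptor Lrp1 (-0.57, 0.0314) were called lower. In the last list, Mcfd2, which with Lman1 carries factors V and VIII out of the endoplasmic reticulum and was the highest there per kilobase, rose 1.50-fold (edgeR adjusted p = 0.0193), again not on omission of any library numbered 1 or 2 (up to 0.0971).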

How the data were processed

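Counts were made by the authors, who, per the labels, trimmed reads with cutadapt 1.15, removed contaminants with Bowtie2, aligned to GRCm38 with STAR 2.5.2b and deposited raw counts per gene, 1 file per library. featureCounts 1.5.3 is named in the submitters' processing notes. Strand setting and the handling of multiply aligned reads are not given in the sources used here. The series-wide count table was not used.

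Genes were filtered with filterByExpr (minimum count 10, minimum total 15), scaled with TMM factors (0.917 to 1.08) and compared with the edgeR 4.0.16 quasi-likelihood F-test in R 4.3.3, two-sided, group as the single term, with Benjamini-Hochberg adjustment over all genes. SEs were derived as the size of the change divided by the root of F. Exon lengths and positions came from GENCODE M21 (GRCm38), which held 98.9% of the gene identifiers. Deviations from group means correlated at r = 0.513, 0.334 and 0.613 between libraries numbered 1, 2 and 3, so the number was taken as pairing, from the data alone. Control 1 with LPS 2 (0.419) and control 2 with LPS 1 (0.323) correlated about as well, so the check sets apart replicate 3 but not replicates 1 and 2. Alternatives were other scaling and filters, DESeq2 1.42.0, the edgeR exact test, limma-voom (limma 3.58.1), the replicate block and each library left out. The members and lists were chosen with earlier results of these data known. All members were named, and of the other pathway genes those called and the highest per kilobase of each list, with a few others named as examples.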

Additional observations from a re-analysis of the deposited data

How the results depend on the processing

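Over 378 recomputed values, 322 were labelled the same. For fold changes this meant the same direction and side of the threshold, and for counts a value within 1.5 times. The ratios have no threshold and were judged by direction alone, which all of them kept. Serpinb2, F3, Plat and Tfpi2 kept their calls under every alternative run, though Serpinb2 had no value under the filter of 10 counts in every library. Over all genes the median shifted from -0.02 to -0.12 (upper-quartile factors) and -0.18 (library size alone), and higher genes from 57.5% of all calls to 39.8% and 32.4%. Under these 2 settings Serpine2 was at 0.47 and 0.41 and lost its call, Tfpi was at -0.027 and -0.082, and 4 of the 35 wider pathway genes were called lower in each, against 2, as 1589 and 2054 of all 15226 genes were. The replicate block called Plaur higher (0.43) and changed no other call of the 10 genes. It called 7 wider genes higher and 6 lower, where 15.4% and 14.9% of all genes were called. The filter of 10 counts in every library called 3 wider genes higher, since it removed F10 and F2rl3, and called 1204 of all 13817 genes higher. DESeq2 called 4 wider genes lower and limma-voom 1, beside 1673 and 921 of all genes. The other causes were not tested.

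Leaving out 1 library in turn gave ranges of -1.98 to -1.30 for Plau, 0.50 to 0.63 for Serpine2, -0.10 to 0.28 for Tfpi, -1.50 to -0.68 for Thbd and 2.70 to 3.26 for Procr. Tfpi was at -0.068 without control replicate 3 and -0.10 without LPS replicate 1. Members called ranged from 3 to 5 higher and 1 to 3 lower, and wider genes from 2 to 7 higher and 0 to 3 lower, while over all genes these fits called from 379 to 1964 higher and from 112 to 1426 lower. Without both libraries numbered 3, Plaur was at 0.48 and Thbd at -1.47, both called, with 10 wider genes higher and 7 lower, where 22.6% and 20.4% of all genes were called. Counts at or below 3 in a library, as in the Serpinb2 controls, limit the fold of that gene.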
